A study of Mus musculus with 10 samples.

Results

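Neutrophils, the first white blood cells to enter a wound, are drawn in by a small family of chemokines, and the genes described here are 8 of these attractants and their companions. Cxcl1, Cxcl2, Cxcl3, Cxcl5 and Ppbp encode CXC chemokines with the Glu-Leu-Arg (ELR) motif that the receptor Cxcr2 recognises on neutrophils. Csf3 and Csf2 encode G-CSF and GM-CSF, growth factors that drive the production, release and survival of granulocytes. Cxcl16 encodes a chemokine without that motif, made as a membrane-bound protein that is shed by proteases and whose receptor Cxcr6 sits mainly on T cells. Several of these genes, such as Cxcl1 and Cxcl2, are typically switched on through NF-kB and the IkBzeta protein. The triggers are interleukin-1, interleukin-17 or tumour necrosis factor sensed by skin cells. The short-lived messenger RNAs of such genes are removed by dedicated decay proteins.

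The 8 genes were chosen by symbol from 30743 mouse genes with an array feature of their own, and each had exactly 1 such feature. Of them, 6 passed the filter on low signal and belong to the 17635 genes tested. Csf3 and Csf2 lay below the filter, a mean of 4.17 on the log2 scale over all arrays.

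The data were 10 Affymetrix Clariom D arrays of wound-edge skin. The 5 miR-132 samples came from wounds injected with 0.5 nmol of miR-132 mimic and the 5 control samples from wounds injected with 0.5 nmol of control mimic, each in 100 µl at 4 points of the wound edge right after wounding. All mice were male db/db animals of the strain BKS(D)-Leprdb/JOrlRj, given by the labels as on a C57BL/6 background, 11 weeks old before a period of single caging, without a working leptin receptor and therefore obese and diabetic. All had 2 dorsal wounds of 4 mm, all received the same transfection reagent and buprenorphine, and all were sampled on day 6. The mimic was placed around the whole wound edge and is not restricted to a cell type, and the labels do not say whether the wounds of a mouse were pooled.

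A mimic is a synthetic double-stranded RNA that acts like the mature microRNA. The labels do not give its sequence. The mature mouse microRNA that it is named for is printed below from RefSeq (GRCm38.p6) because its seed, bases 2 to 8 in capitals, defines what it can pair with, and its neighbour on chromosome 11, miR-212, carries the same seed.
mmu-miR-132-3p: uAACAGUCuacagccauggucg
mmu-miR-212-3p: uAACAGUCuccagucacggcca

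The ELR chemokine genes Ppbp, Cxcl3, Cxcl1 and Cxcl2 lie in 1 cluster on chromosome 5, where the gene order in RefSeq is Cxcl5, Ppbp, Pf4, Cxcl3, Cxcl15, Cxcl1 and Cxcl2. RefSeq promoters matched 5 of the 8 genes. The last 120 bases before the start site are shown for the genes whose promoters share letters, because the signals of Cxcl2 and Cxcl3 moved together across the arrays (below). Capitals mark the 2 longest letter runs common to the windows of Cxcl1, Cxcl2 and Cxcl3. They are GGGAATTTCCC, which has the form of an NF-kB site, and ATAAAAGG, which has the form of a TATA box.
Cxcl1, plus strand, chr5:90891125-90891244: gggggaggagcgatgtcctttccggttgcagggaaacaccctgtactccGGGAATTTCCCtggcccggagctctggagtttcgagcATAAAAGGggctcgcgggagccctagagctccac
Cxcl2, plus strand, chr5:90903779-90903898: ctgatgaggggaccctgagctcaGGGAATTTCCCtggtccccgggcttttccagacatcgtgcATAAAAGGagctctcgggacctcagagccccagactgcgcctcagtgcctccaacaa
Cxcl3, plus strand, chr5:90785981-90786100: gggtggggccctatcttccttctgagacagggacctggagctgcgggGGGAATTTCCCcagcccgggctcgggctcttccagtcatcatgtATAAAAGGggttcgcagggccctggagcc
Ppbp, plus strand, chr5:90768398-90768517: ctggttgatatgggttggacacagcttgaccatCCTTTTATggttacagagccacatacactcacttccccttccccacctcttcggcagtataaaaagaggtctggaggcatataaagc
The GGGAATTTCCC run began 71 bases before the start in Cxcl1, 97 in Cxcl2 and 73 in Cxcl3. Both letter runs, which do not overlap, were searched on both strands of the 250 bases before the start. GGGAATTTCCC occurred in 14 of 32851 promoters (0.0426%) and ATAAAAGG in 507 (1.54%), and the 3 promoters that held both were those of Cxcl1, Cxcl2 and Cxcl3. The ATAAAAGG run began 34 bases before the start in Cxcl1, 57 in Cxcl2 and 29 in Cxcl3. Ppbp held this run on the opposite strand only, 87 bases before the start. That match does not read as a TATA box in the direction of the gene. Nearer the start, the plus strand of Ppbp reads tataaaaagagg, which resembles a TATA box but was not a searched run. Ppbp did not hold the first run, and Csf2 held neither. The letters were taken from these 3 promoters, so that their presence there is no result, and a match is a description of the sequence and not of binding.

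None of the 8 genes differed between miR-132 and control wounds past limma's threshold, an adjusted p of 0.05 over all genes tested. Cxcl2 averaged 1.93-fold, Cxcl3 1.61-fold and Cxcl16 1.53-fold lower with miR-132, Cxcl5 and Cxcl1 lower by log2 differences of -0.26 and -0.17, and Ppbp 1.22-fold higher. Over all 17635 genes 0 passed the adjusted threshold (0%, lowest adjusted p of 0.596), while 1426 had an unadjusted p under 0.05 (8.09%), 990 of them lower (5.61%) and 436 higher (2.47%). Of the 6 tested members 1, Cxcl16, was lower at the unadjusted threshold and 0 were higher. Of the 6, 5 averaged lower, against 53.6% of all genes tested, and 1 averaged higher, against 45%. For 0 of them did the groups lie apart, against 0.646% of all genes with no overlap and lower and 0.284% with no overlap and higher. These 5 averages were lower also after a further quantile normalization and after centring each array on its median, where 49.0% and 69.3% of all genes tested averaged lower. The labels do not say that each array came from a separate mouse, so p-values measure the spread between these 10 samples, which may be technical.

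**Figure D1:**
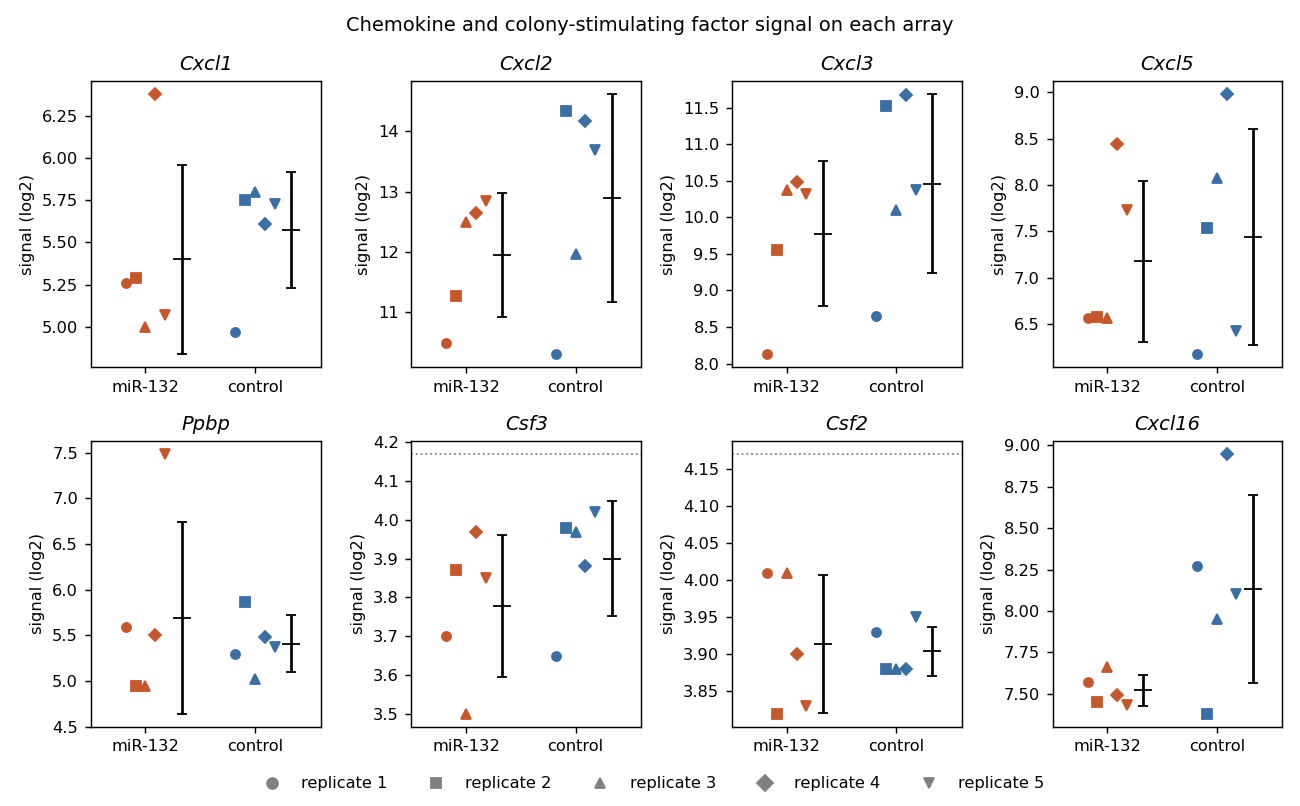
Signal of each of the 8 genes on the log2 scale (vertical axis, own scale for each gene) on the 5 miR-132 and 5 control arrays; symbols give the replicate number, horizontal ticks the group mean and bars its SD. Dotted lines mark the level filter of 4.17, which Csf3 and Csf2 did not reach; the groups overlap for every gene, and the miR-132 arrays of Cxcl16 lie within 0.23 of each other.

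Cxcl2 (cluster TC0500000850.mm.1), also called MIP-2, a chemokine that macrophages, neutrophils and keratinocytes make on stimulation, measured 10.48, 11.26, 12.49, 12.64 and 12.85 on miR-132 replicates 1 to 5. Its control replicates 1 to 5 measured 10.30, 14.34, 11.97, 14.17 and 13.69. All 5 miR-132 arrays lay below the control mean, 3 control arrays lay above every miR-132 array, and control replicate 1 was the lowest of all 10. The means were 11.94 ± 1.03 with miR-132 and 12.89 ± 1.73 in controls (SD, n = 5 each), a log2 difference of -0.95 ± 0.82 (SE) with a 95% interval from -2.78 to 0.88, limma's adjusted p of 0.783, and 0.302 as the exact permutation p. Without control replicate 1 the difference was -1.60, with an unadjusted limma p of 0.0338 and an adjusted p of 0.802. Without miR-132 replicate 1 it was -0.58, and without control replicate 2 or 4 it was -0.59 or -0.63. The 4 hybridisation control features, which are added to the sample and carry no tissue signal, averaged 10.57 to 10.98 on miR-132 arrays and 10.43 to 10.61 on control arrays. With their mean as a covariate the Cxcl2 difference was -2.02 ± 1.10 (SE, limma's adjusted p of 0.575). The covariate itself differed between the groups, so for every gene this fit cannot fully tell it apart from the mimic. Among control wounds alone the highest Cxcl2 signal was 16.4 times the lowest.

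Cxcl3 (TC0500000844.mm.1), another ligand of Cxcr2, had miR-132 values of 8.13, 9.55, 10.38, 10.49 and 10.32. Its control values were 8.65, 11.52, 10.10, 11.67 and 10.37. The same pair of arrays, replicate 1 of each group, was lowest for Cxcl3 and for Cxcl2, and control replicates 2 and 4 were highest for both. The difference was -0.69 ± 0.64 (SE), with an interval from -2.13 to 0.75 and limma's adjusted p of 0.790 (exact permutation p of 0.341). Without miR-132 replicate 1 the Cxcl3 difference was -0.28, without control replicate 1 it was -1.14, without control replicate 2 it was -0.42 and without control replicate 4 it was -0.39, none of them past the threshold. Adjusted for the hybridisation controls it was -1.57 ± 0.86 (SE, adjusted limma p of 0.575).

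Cxcl2 and Cxcl3 followed each other from array to array. Their Pearson r over the 10 arrays was 0.947 (permutation p of 8.00e-05, adjusted p of 0.00176 over 22 relations) and their Spearman rho 0.879 (permutation p of 0.00191, adjusted p of 0.0210). Without replicate 1 of both groups, the arrays farthest from the median of Cxcl2, r was 0.906, and on deviations from the group means it was 0.941 (adjusted permutation p of 0.00088). Of the 15 pairs among the 6 tested members this was the only pair that passed, and the next, Cxcl3 with Cxcl5, had r of 0.670, rho of 0.578 (permutation p of 0.0842) and 0.251 as the adjusted p of r. Cxcl1, whose promoter holds the same letter runs, had r of 0.457 with Cxcl2 (rho of 0.467, permutation p of 0.180) and 0.459 with Cxcl3 (adjusted p of 0.392 for both values of r). Cxcl1, Cxcl2 and Cxcl3 are close paralogs, and cross-hybridisation between their probes was not tested.

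Arrays with more Cxcl2 tended to have more signal of the neutrophil marker genes. Of 13 tested neutrophil marker genes, 11 averaged lower with miR-132, such as Retnlg (-0.32) and Trem1 (-0.52), and 2 higher, Wfdc21 (0.58) and Camp (0.09). Ly6g, Camp and Cd177 lay near the level filter, with miR-132 means of 4.52, 4.51 and 4.36. S100a8 and S100a9, at the upper signal limit on 9 arrays, were left out of the mean. The mean of the other 11 genes was 7.95, 7.24, 7.63, 7.96 and 8.21 on miR-132 replicates 1 to 5. On control replicates 1 to 5 it was 6.85, 8.22, 7.79, 8.68 and 8.60. The groups overlapped, and control replicate 1, lowest for Cxcl2, was lowest here too. Cxcl2 followed this mean with r of 0.809 (permutation p of 0.00496, adjusted p of 0.0546) and rho of 0.879 (p of 0.00166, adjusted p of 0.0210), so the rank relation passed adjustment and the linear one did not. Without control replicates 1 and 4, the 2 arrays farthest from the median marker level, r was 0.645. On deviations from the group means r was 0.802 (adjusted permutation p of 0.0574), and 0.530 without the 2 arrays whose marker deviations were farthest from the median. Cxcl3 had r of 0.642 (rho of 0.685, permutation p of 0.0352), an adjusted p of 0.251 and r of 0.326 without the same 2 arrays, so its relation rests on them. In wound tissue as a whole, fewer cells of a type and less RNA per cell cannot be told apart, and the part of neutrophil number in the Cxcl2 values was not tested.

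**Figure D2:**
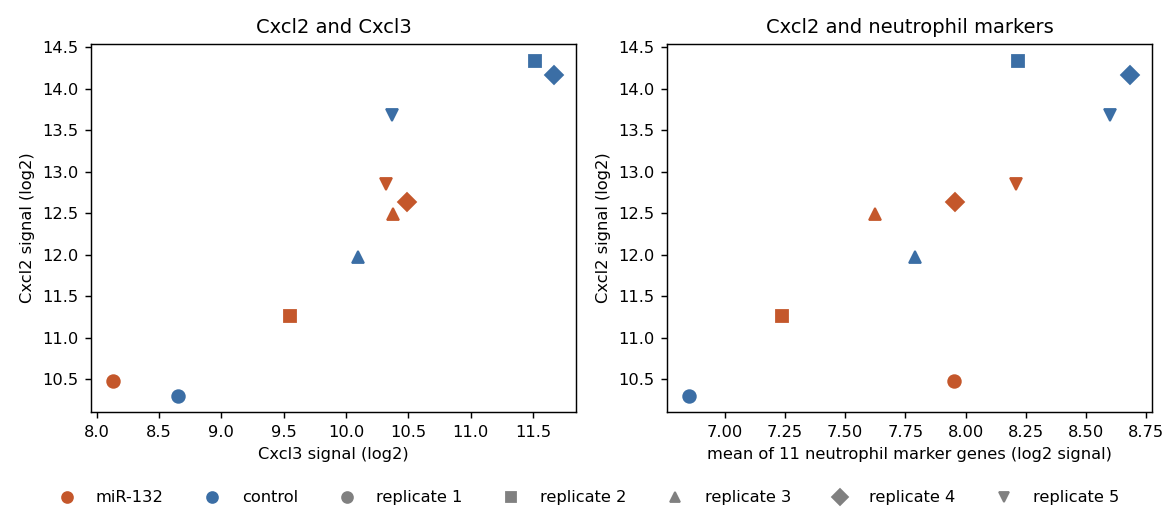
Cxcl2 signal (vertical axes, log2) against Cxcl3 signal (left, log2) and against the mean log2 signal of 11 neutrophil marker genes (right); each point is 1 array, colour gives the group and symbol the replicate number. Cxcl2 and Cxcl3 lie close to a line (r of 0.947), with replicate 1 of both groups at the low end, while miR-132 replicate 1 stands below the trend on the right.

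Cxcl5 (TC0500000841.mm.1), the ELR chemokine known as LIX and made mainly by epithelial cells, measured 6.57, 6.58, 6.57, 8.44 and 7.73 with miR-132. Control values were 6.18, 7.54, 8.08, 8.98 and 6.43. Each group held arrays near its low end and others well above it, and the groups overlapped throughout. The difference was -0.26 ± 0.59 (SE), with an interval from -1.58 to 1.05, limma's adjusted p of 0.928 and 0.714 as the exact permutation p. Without control replicate 4 it turned to 0.12, and without miR-132 replicate 4 or control replicate 1 it was -0.58. It was -0.11 without miR-132 replicate 1, 2 or 3, -0.40 without miR-132 replicate 5, -0.10 without control replicate 3 and -0.52 without control replicate 5. With array weights it turned to 0.075, and in the fit with the hybridisation controls it was -0.64.

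Cxcl1 (TC0500000848.mm.1), known as KC, was dim but above the filter, at 5.26, 5.29, 5.00, 6.38 and 5.07 with miR-132. Controls measured 4.97, 5.75, 5.80, 5.61 and 5.73. In each group 4 arrays lay close together, miR-132 replicate 4 stood above every other array and control replicate 1 below every other. The difference was -0.17 ± 0.27 (SE), with an interval from -0.77 to 0.43 and limma's adjusted p of 0.886 (exact permutation p of 0.611). Without miR-132 replicate 4 it was -0.42, with an unadjusted limma p of 0.0366 and an adjusted p of 0.659. Without control replicate 1 it was -0.32, without miR-132 replicate 3 -0.07, without miR-132 replicate 5 -0.09 and without control replicate 3 -0.12.

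Ppbp (TC0500000842.mm.1) encodes the precursor of a chemokine stored in platelets. Its miR-132 values were 5.59, 4.94, 4.94, 5.50 and 7.49, and its control values 5.30, 5.87, 5.02, 5.48 and 5.37. Only miR-132 replicate 5 lay above the control range, and miR-132 replicates 2 and 3 lay below it. The difference of 0.28 ± 0.44 (SE, interval from -0.71 to 1.28, limma's adjusted p of 0.886, exact permutation p of 0.754) turned to -0.17 without that array, and was 0.47 without miR-132 replicate 2 or 3 and 0.19 without control replicate 3. Adding the hybridisation controls to the fit gave -0.19, and array weights gave 0.55. The neighbouring gene Pf4, named here after its values were seen, encodes platelet factor 4 and was also highest on miR-132 replicate 5, at 13.11, with 12.70 on miR-132 replicate 4 and 12.71 on control replicate 4. Of 7 measured platelet and megakaryocyte markers, 6 lay below the filter, and the remaining one, Gp9, was 3.99 on miR-132 replicate 5, its lowest array. Gp9 averaged 4.21 with miR-132 and 4.19 in controls, and its r with Ppbp was -0.625 (rho of -0.625, permutation p of 0.0582, adjusted p of 0.295 for r). Without miR-132 replicate 2 and control replicate 5 that r was -0.852.

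Cxcl16 (TC1100003097.mm.1) was the member with the smallest p. Its miR-132 arrays measured 7.57, 7.45, 7.66, 7.49 and 7.43. Its control arrays measured 8.27, 7.38, 7.95, 8.95 and 8.10. All miR-132 arrays lay below 4 of the 5 controls, and control replicate 2 lay below all of them. The SD was 0.09 with miR-132 and 0.57 in controls, and the means were 7.52 and 8.13, a log2 difference of -0.61 ± 0.24 (SE, interval from -1.15 to -0.07). The unadjusted limma p was 0.0308, the adjusted p 0.596 and the exact permutation p 0.0476, where 5 against 5 arrays allow 0.00794 at the lowest. The difference was -0.80 without control replicate 2, which had an unadjusted p of 0.00279, and -0.41 without control replicate 4 (0.0457). With each array left out in turn, 6 of 10 fits kept an unadjusted p under 0.05. Adjusted for the hybridisation controls, whose level differed between the groups, it was -0.39, with an unadjusted limma p of 0.282. Across arrays Cxcl16 had a weak relation to the neutrophil markers (r of 0.230, rho of 0.0182, permutation p of 0.972, adjusted p of 0.702 for r).

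**Figure D3:**
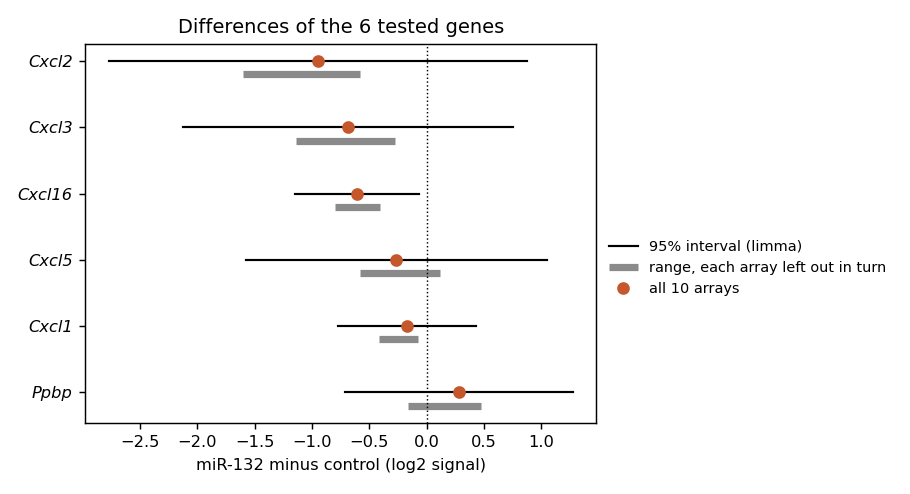
Log2 difference, miR-132 minus control, for the 6 tested genes (points), with the 95% interval from limma (thin lines) and the range when each array is left out in turn (grey bars). The interval of Cxcl16 lies below 0 before adjustment over all genes, and the ranges of Cxcl5 and Ppbp cross 0.

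Csf3 and Csf2, the growth factor genes, stayed at the level of dim features. Csf3 measured 3.70, 3.87, 3.50, 3.97 and 3.85 with miR-132, against 3.65, 3.98, 3.97, 3.88 and 4.02 in controls. Csf2 measured 4.01, 3.82, 4.01, 3.90 and 3.83 with miR-132, against 3.93, 3.88, 3.88, 3.88 and 3.95 in controls. The group means of Csf3 lay 0.12 and those of Csf2 0.01 apart, with exact permutation p of 0.278 for Csf3 and 0.817 for Csf2. In the limma fit without the level filter the differences were -0.12 ± 0.10 for Csf3 (SE, adjusted p of 0.695) and 0.01 ± 0.05 for Csf2 (SE, adjusted p of 0.962).

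Genes of the surrounding pathway came from 9 lists with 78 genes, of which 58 were tested. Of these, 50 averaged lower and 8 higher with miR-132, 10 had an unadjusted p under 0.05, all 10 lower, and 0 passed the adjusted threshold. Of all genes tested 53.6% averaged lower (69.3% after centring on the array median and 49.0% after a further quantile normalization). An unadjusted p under 0.05 was reached by 8.09%, and 5.61% were also lower. The pathway genes had a median difference of -0.24, against -0.02 over all genes tested. The lists were drawn up with earlier results of these data known, so the counts are a description.

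Receptor genes of the attractants averaged lower in all 5 tested members of their list, against 53.6% of all genes tested, and 0 reached the unadjusted threshold. Csf3r, the G-CSF receptor of neutrophils, measured 7.11, 7.04, 7.08, 8.03 and 7.36 with miR-132 and 7.11, 7.48, 7.90, 9.97 and 8.75 in controls, a difference of -0.92 ± 0.50 (SE, limma's adjusted p of 0.656). All 5 miR-132 arrays lay below the control mean, which control replicate 4 raised. Cxcr2, the receptor of the ELR chemokines, differed by -0.56 ± 0.39 (SE), Cxcr6, the receptor of Cxcl16, by -0.42 ± 0.23 (SE), and Ackr1, a decoy that binds chemokines on venules, by -0.12. Cxcr1 lay below the filter. Of the neutrophil markers, 11 of 13 tested genes averaged lower, against 53.6% of all genes tested, and 0 reached the unadjusted threshold. Among the 11, S100a8 and S100a9 were lower through miR-132 replicate 5 alone, with the other 9 arrays at the signal limit. The median difference was -0.29, with marker means of 7.24 to 8.21 with miR-132 and 6.85 to 8.68 in controls. The markers Ngp, Ltf and Itgb2l lay below the filter. The part of the neutrophil markers in the receptor values was not tested.

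Inducers of the chemokines averaged lower in 12 of 12 tested cytokine and receptor genes (11 of 12 after a further quantile normalization). Over all genes tested, 53.6% averaged lower and 5.61% were lower at an unadjusted p under 0.05. Tnf, which encodes tumour necrosis factor, measured 5.76, 5.39, 5.98, 5.55 and 5.95 with miR-132 and 6.09, 6.94, 5.91, 7.10 and 6.50 in controls. Its difference was -0.78 ± 0.24 (SE), and it was the only gene of that list under the unadjusted threshold (limma's adjusted p of 0.596). Il17a and Il17c lay below the filter. Of 9 tested adaptors and transcription factors, 8 averaged lower, 3 of which passed the unadjusted threshold. They were Nfkbiz, which encodes IkBzeta, at -0.82 ± 0.27 (SE), Rela, the NF-kB subunit p65, at -0.64 ± 0.18 (SE), and Cebpb, a transcription factor that acts with IkBzeta, at -0.36 ± 0.14 (SE), each with an adjusted p of 0.596. Rela measured 9.34, 9.09, 9.94, 9.68 and 9.44 with miR-132 and 9.97, 10.22, 9.91, 10.18 and 10.42 in controls, so that its groups overlapped through miR-132 replicate 3 alone.

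Factors that govern the life of chemokine messengers averaged lower in 10 of 10 tested genes (9 of 10 after a further quantile normalization), 4 of them under the unadjusted threshold. Over all genes tested, 53.6% averaged lower and 5.61% were lower under that threshold. Elavl1, which encodes the stabilising protein HuR, was the only gene of the pathway lists whose groups did not overlap. Among all genes tested, 0.646% had no overlap and were lower. Elavl1 measured 6.03, 5.74, 5.93, 6.09 and 5.99 with miR-132 and 6.25, 6.11, 6.15, 6.26 and 6.50 in controls (difference of -0.30 ± 0.09, SE, limma's adjusted p of 0.596). The others were Zfp36l1 at -0.58, a relative of tristetraprolin that destabilises messengers, Rc3h1 at -0.40, which encodes the decay factor roquin-1, and Khsrp at -0.27, another decay protein. The list thus holds genes for stabilising and for destabilising proteins, and their RNA signals averaged lower alike. Of 4 genes for the shedding of Cxcl16, 3 averaged lower (2 after a further quantile normalization). Rhbdf2, which encodes the partner iRhom2 of the sheddase ADAM17, differed by -0.45 ± 0.12 (SE, unadjusted p of 0.00341), while Adam10 and Adam17 differed by -0.17 and -0.27. Of other neutrophil attractant systems, 6 of 7 tested genes averaged lower (5 after a further quantile normalization), and Ltb4r1, the receptor of leukotriene B4, had a difference of -0.84 ± 0.32 (SE, unadjusted p of 0.0259).

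The list of other CXC ligands holds none of the members. Of its 5 tested genes, 4 averaged higher with miR-132 (5 after a further quantile normalization), and 0 were under the unadjusted threshold. Cxcl15, the ELR chemokine gene in this list, lay below the filter. Cxcl13, a B cell attractant, measured 10.52, 6.67, 11.01, 10.98 and 8.61 with miR-132 and 8.19, 5.71, 7.22, 7.40 and 12.38 in controls, a difference of 1.38 ± 1.27 (SE, limma's adjusted p of 0.790). The highest of its 10 arrays was control replicate 5. Cxcl9, an interferon-induced attractant of T cells, differed by 0.37. The difference between this list and the members was not tested. Among other CXC receptors Cxcr4 differed by -0.61 and Ackr3 by -0.06, and among other colony-stimulating cytokines Kitl (stem cell factor) differed by 0.20 and Il34 by -0.16, all short of the unadjusted threshold.

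**Figure D4:**
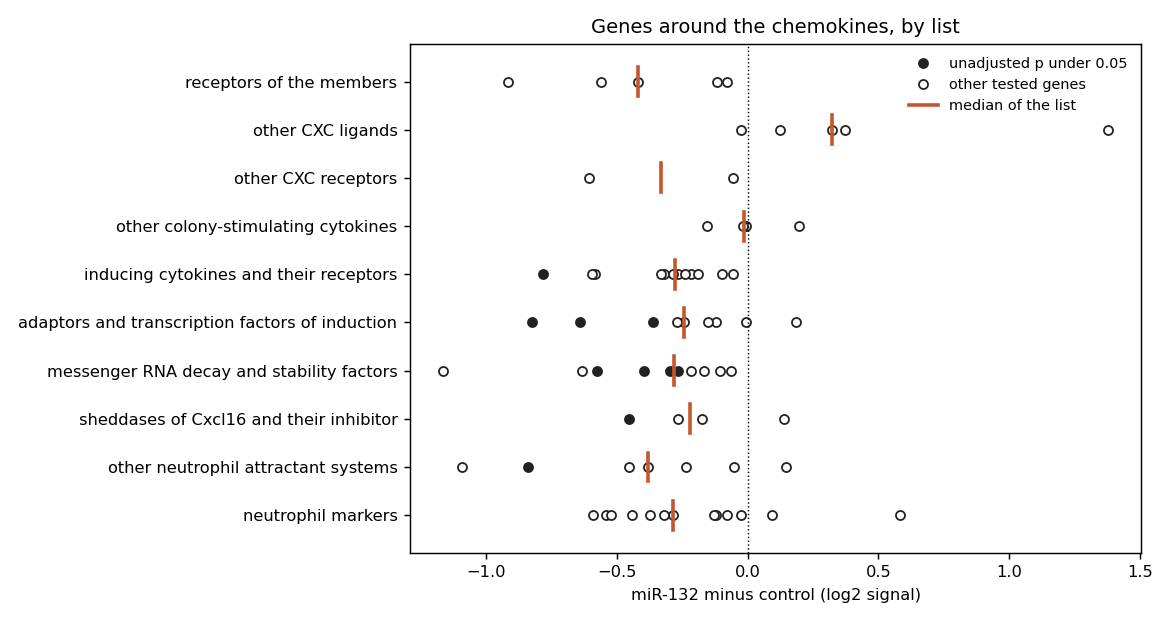
Log2 difference, miR-132 minus control, for the tested genes of 9 pathway lists and of the neutrophil markers, 1 row a list; filled points have an unadjusted p under 0.05, and orange ticks mark the list median. All 10 filled points lie below 0, and the other CXC ligands are the list with the highest median, 0.32.

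Genes that followed each member most closely were sought over the deviations of the 10 arrays from their group means, as a description with no test. They were picked as the highest r among all genes searched, and on 10 arrays that choice alone can give a high r. Cxcl2 was followed by Ccl3 (r of 0.934), a chemokine of macrophages and neutrophils, and by Osm (0.929), which encodes oncostatin M. Ccl3 averaged lower by a log2 difference of -1.09, and Osm differed by 0.10. For Cxcl3 the closest were Lsm11 (0.916) and Gpr132 (0.904), for Cxcl5 Pcsk5 (0.932) and Rad51c (0.868), for Cxcl1 Tpsab1 (0.906), a mast cell tryptase gene, and Kcnk3 (0.902), for Ppbp Carmn (0.968) and Bcat1 (0.958), and for Cxcl16 Vnn3 (0.967) and Clns1a (0.964). No gene was closest to more than 1 member.

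As a check of the tissue, the epidermal keratin gene Krt14 was at or near the upper signal limit of 19.93 on all 10 arrays (19.84 to 19.93). Macrophage markers averaged 10.53 to 11.76 with miR-132 and 10.27 to 11.45 in controls on the log2 scale. Only 6 keratinocyte markers were off the signal limit, and Trp63 among them differed by -0.68. Cell marker lists other than the neutrophil one had median differences between -0.51 (skeletal muscle) and 0.43 (adipocytes), and of their genes Trp63 alone had an unadjusted p under 0.05. The span of array signal between the 10th and 90th percentile was 4.41 to 4.92 with miR-132 and 4.81 to 5.03 in controls, narrowest on miR-132 replicates 2 and 5.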

How the data were processed

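Wound-edge RNA (150 ng per sample) was measured on 10 Affymetrix mouse Clariom D arrays. The authors' software was Affymetrix Expression Console 1.4 and their normalization RMA, per the submitters' processing notes. The deposited values were read as log2 because of their range and shared upper limit of 19.93, since no label names the scale. No source used here names the genome build of the clusters.

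The table held 72688 features, of which 31216 had 1 gene, 1534 had several and 39938 had none in the annotation used. RefSeq symbols replaced older ones for 827 features through gene identifiers (GRCm38.p6), and 612 features with synonyms of 1 gene were counted as 1 gene. The brightest feature of a gene by its mean over all arrays was kept. Genes with a mean above 4.17, the median over all features, were tested. Groups were compared in R 4.3.3 by limma 3.58.1, with its trended eBayes moderation, two-sided p-values and Benjamini-Hochberg adjustment, with exact two-sided permutation tests for single genes and permutation tests (100000 resamples) for correlations across arrays, checked on simulated data. SE is limma's moderated standard error.

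The named genes were the 8 members and the pathway genes at an unadjusted p under 0.05, or else the 2 with the smallest p in a list. To these came the 2 with the smallest p of each cell marker list, not all of which are printed. The 2 closest followers of each member were named as well. Further genes of the same lists are given for their role. The members and lists were chosen with earlier results of these data known. Alternatives were no or a stricter level filter, a further quantile normalization, centring on the array median, no intensity trend, array weights, the 4 hybridisation controls as a covariate, a replicate block, the mean over features and leaving out arrays. The number of arrays limits the precision.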

Additional observations from a re-analysis of the deposited data

Results flagged for a closer look

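In groups of 5 arrays, 1 array stood away from the other 4 by more than 0.71 of the group's range in 5 of 94 groups examined (the 8 members and 39 named genes of the lists, 2 groups each, without the closest followers), where chance gives about 1 in 20. For the members this was so in 3 of 16 groups. Cxcl1 was 6.38 on miR-132 replicate 4, with 5.00 to 5.29 on the other miR-132 arrays, and 4.97 on control replicate 1, with 5.61 to 5.80 on the other controls. Ppbp was 7.49 on miR-132 replicate 5, with 4.94 to 5.59 on the others. S100a8, a calprotectin subunit gene, was 19.29 on miR-132 replicate 5 and at the signal limit of 19.93 on the other 9 arrays. Adipoq, the adiponectin gene of fat cells, was 8.22 on control replicate 5, with 5.20 to 5.98 on the other controls.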

How the results depend on the processing

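No alternative brought a member past the adjusted threshold, and Cxcl1, Cxcl2, Cxcl3 and Cxcl16 kept their direction in each alternative run. Cxcl5 turned to 0.075 with array weights. Ppbp turned to -0.19 once the hybridisation controls entered the fit and to -0.0647 without miR-132 replicates 2 and 5. When each array was left out in turn, the differences ranged from -1.60 to -0.58 for Cxcl2, -1.14 to -0.28 for Cxcl3, -0.80 to -0.41 for Cxcl16, -0.58 to 0.12 for Cxcl5, -0.42 to -0.07 for Cxcl1 and -0.17 to 0.47 for Ppbp. The count of genes past the adjusted threshold then ranged from 0 to 52, with 52 in the absence of miR-132 replicate 3 and no member among them, and the count at the unadjusted threshold from 949 to 2482. In the fit with hybridisation controls Cxcl2 was at -2.02 and Cxcl3 at -1.57 (adjusted p of 0.575 each). That covariate differed between the groups and cannot be fully told apart from the mimic. Without the level filter 2635 genes had an unadjusted p under 0.05, 989 lower and 1646 higher. The split of 990 lower and 436 higher was 663 and 559 after a further quantile normalization, 1602 and 166 after centring on the array median. Genes for Cxcl16 shedding had a median of -0.22, and -0.0634 after quantile normalization. The relation of Cxcl2 to neutrophil markers passed adjustment after quantile normalization (r of 0.815, adjusted p of 0.0421), and that of Cxcl1 to Cxcl16 was -0.0124 and turned to 0.0753 after centring. The cause of these shifts was not tested. With the replicate block, 1273 genes had an unadjusted p under 0.05 and 0 an adjusted one, Cxcl2 had an SE of 0.55 and an adjusted p of 0.672, and no call on a member changed. The labels do not say what the numbers share: same-numbered arrays correlated by -0.03 to 0.16 in their deviations, and 2 of the 5 pairs correlated best with their own number. Csf3 and Csf2 are limited by signal near the filter.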
